A study of Mus musculus with 6 samples.

Results

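The 9 genes described here encode subunits of the Polycomb repressive complexes and were followed in RNA-seq of cultured fibroblasts (pMEFs), obtained from mid-gestation mouse embryos once the internal organs had been removed. The members were taken by name: Ezh1, Ezh2, Suz12, Eed and Jarid2 of Polycomb repressive complex 2 (PRC2), and Cbx2, Cbx7, Cbx8 and Bmi1 of Polycomb repressive complex 1 (PRC1). All 9 were among the 17512 genes of the count table and among the 14773 genes with enough counts to test. The RNA came from 6 cell lines of C57bl6 background, of which lines 36, 47 and 78 were wild type for Hat1 (HAT1 WT, 3 lines) and lines 33, 41 and 72 were knocked out for it (HAT1 KO, 3 lines), with no treatment in either genotype. HAT1 adds acetyl groups to fresh histone H4 on its way into chromatin. The study was about chromatin accessibility, and used RNA-seq to ask whether accessibility lost without HAT1 came from lost transcription. Each line was 1 replicate, so the spread between lines includes that between embryos and between cultures. The way the Hat1 allele was disrupted was not given in the sources used here.

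PRC2 places methyl groups on lysine 27 of histone H3, a mark of genes held silent through development. EZH1 and EZH2 are its alternative catalytic subunits, SUZ12 is the scaffold, EED reads the finished mark, and JARID2 is an accessory subunit that helps the complex reach its targets. PRC1 places ubiquitin on histone H2A. In its canonical form a CBX protein (CBX2, CBX7 or CBX8 here) binds the mark made by PRC2, and BMI1, also named PCGF4, partners the catalytic RING protein. In fibroblasts BMI1 is best known for holding down the Cdkn2a locus, whose products stop cell division, and EZH2 is known as the form of dividing cells and EZH1 as that of resting cells.

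The libraries held 67720628 to 98786746 counts each, and the members 134 to 6153 counts in a library. Levels are given as CPM, the counts of a gene scaled to a common library size after trimmed-mean (TMM) normalisation. Hat1 itself stood at 17.4, 23.0 and 20.1 CPM in WT lines 36, 47 and 78 and at 10.2, 10.0 and 10.3 CPM in KO lines 33, 41 and 72, a log2 difference of -0.99 (SE 0.12, edgeR adjusted p = 0.0376), so transcript from the locus was lowered and not absent. Fibroblast markers such as collagens summed to 48680 to 82652 CPM. All 10 macrophage markers were lower in HAT1 KO, 8 of them at an adjusted p under 0.05, with sums of 4811 to 5220 CPM in HAT1 WT and 2312 to 2861 CPM in HAT1 KO. Y-linked genes held 13788 and 12841 counts in WT lines 36 and 47, 231 counts in WT line 78 and 4 to 8 counts in the KO lines, so Y-linked signal went with the genotype except in WT line 78. Sequencing lanes were 8, 6 and 7 for the WT lines and 6, 7 and 6 for the KO lines. KO line 72 stood apart, with a mean correlation of 0.973 with the other libraries against 0.984 to 0.988 for the rest. The part of macrophage RNA, of the Y-linked split and embryo sex, and of lane in the differences of the Polycomb genes was not tested. In bulk RNA, fewer cells of a type and less RNA per cell cannot be told apart.

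Among the Polycomb genes Ezh1 and Ezh2 had the smallest p, with differences in opposite directions. No member passed an adjusted p of 0.05 in edgeR's quasi-likelihood test, a threshold passed by 0.528% of all tested genes. At an unadjusted p under 0.05 there were 2 of 9, against 14.6% of all tested genes: Ezh2 was the 1 member higher in HAT1 KO (background 5.88%) and Ezh1 the 1 member lower (background 8.77%). By direction alone 5 members were higher and 4 lower, with a median log2 difference of 0.03 beside 0.01 over all tested genes. In 3 of 9 members, Ezh1, Ezh2 and Eed, the lines of the genotypes did not overlap, as was so for 22.0% of all tested genes. The plot of log2 differences shows these 9 values with their errors.

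**Figure D1:**
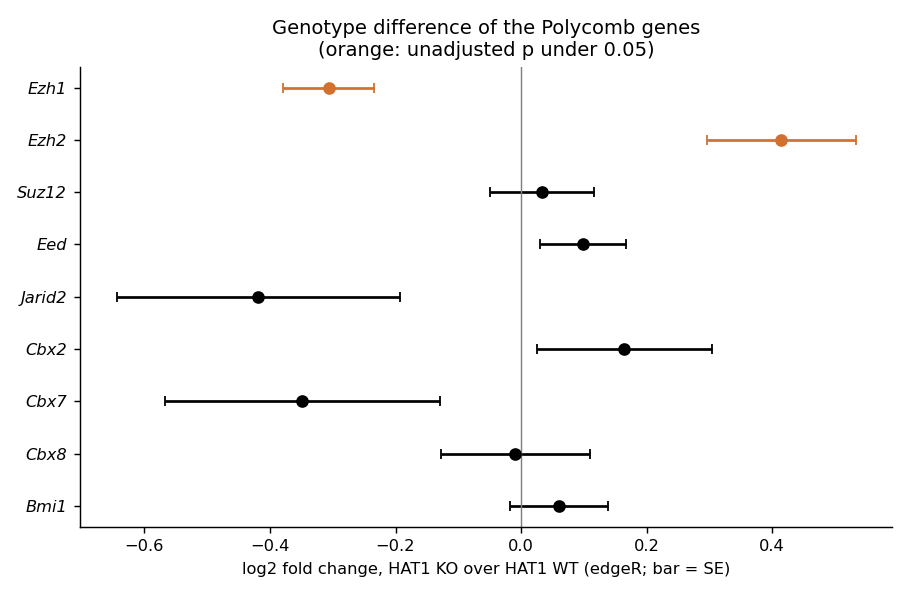
Log2 fold change of HAT1 KO over HAT1 WT (horizontal axis, edgeR) for each of the 9 Polycomb genes (vertical axis), with bars of 1 standard error; orange marks an unadjusted p under 0.05. Ezh2 at 0.41 and Ezh1 at -0.31 are the orange points, and Jarid2 at -0.42 and Cbx7 at -0.35 have wider bars.

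The catalytic subunits lay on opposite sides of their WT levels. Ezh1 (ENSMUSG00000006920, chr11:101191115-101226463, minus strand) was read at 25.8, 25.7 and 28.0 CPM in WT lines 36, 47 and 78 and at 21.6, 21.7 and 20.96 CPM in KO lines 33, 41 and 72. Every KO line lay below every WT line, and the KO lines lay within 1 CPM of each other. The log2 difference was -0.31 (SE 0.07), a fold of 0.809, with an unadjusted edgeR p of 0.00477 and an adjusted p of 0.153. It ranked 460 by p among the tested genes. DESeq2's Wald test gave Ezh1 an adjusted p of 0.0115, and was the only one of the 14 alternative analyses in which a member passed that threshold. That test also called 5.90% of all tested genes, against 0.528% in edgeR. An exact two-sided permutation test over the lines gave p = 0.1, the smallest it can give with 3 lines against 3.

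Ezh2 (ENSMUSG00000029687, chr6:47530139-47595341, minus strand) went the other way. It stood at 15.4, 20.2 and 16.7 CPM in WT lines 36, 47 and 78 and at 24.6, 22.8 and 22.4 CPM in KO lines 33, 41 and 72. All KO lines were above all WT lines, with WT line 47 the nearest to them. The log2 difference was 0.41 (SE 0.12), a fold of 1.33, with an unadjusted edgeR p of 0.0119 and an adjusted p of 0.211. With sequencing lane in the model, which leaves 2 degrees of freedom, the unadjusted p of Ezh2 was 0.0635 and its log2 difference 0.32. WT line 36 was the only library of lane 8, so the lane term also takes that line out of the comparison. Leaving out WT line 36 alone gave Ezh2 a log2 difference of 0.34 with an unadjusted edgeR p of 0.042. Ezh1 kept an unadjusted p under 0.05 in all 14 alternatives and Ezh2 in the 13 others.

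The start regions of this pair are shown because the genes differed in opposite directions and Ezh2 followed the proliferation genes described next. Each run holds 150 bases before and 20 bases after the RefSeq start on GRCm38.p6, at chr11:101226444-101226613 for Ezh1 and chr6:47595011-47595180 for Ezh2, both read along the minus strand. Capitals mark CCAAT, the letters known from NF-Y sites, and TTTNNCGC, the letters known from E2F sites, on either strand.
Ezh1: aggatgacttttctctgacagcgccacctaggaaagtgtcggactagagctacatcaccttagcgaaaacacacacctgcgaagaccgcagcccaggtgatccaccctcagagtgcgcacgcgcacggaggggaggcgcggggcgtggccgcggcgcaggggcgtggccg
Ezh2: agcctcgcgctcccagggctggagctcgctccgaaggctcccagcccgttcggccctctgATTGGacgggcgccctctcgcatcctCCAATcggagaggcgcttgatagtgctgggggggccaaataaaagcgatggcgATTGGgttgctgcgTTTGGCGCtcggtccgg
Ezh2 held TTTGGCGC at bases 4 to 11 after its RefSeq start, and CCAAT letters at 3 places, the first at -90 and the last ending at -7. The gene span of Ezh2 given above, to 47595341, reaches further upstream than that start. Ezh1 held no copy of either motif, also over the full window of 250 bases before and 50 bases after the start. In windows of that length TTTNNCGC was found in 5.16% of 32817 mouse promoters and in 7.79% of the promoters of tested genes, and CCAAT in 37.4% and 37.1%. Of the 8 members with a promoter in the RefSeq table, Suz12 was the only other one with TTTNNCGC, as TTTCCCGC from base -219 to -212. CCAAT was also in Suz12, Eed, Jarid2, Cbx7 and Cbx8. TTTGAA, the letters of the CHR element known from late cell-cycle genes, was in Suz12, Eed and Cbx7. It was in 17.9% of all promoters and in 12.4% of the promoters of tested genes. Such matches are a description of the letters and not of binding.

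Per kilobase of exon, Ezh1 was the more abundant of the pair in every WT line and Ezh2 in every KO line. Which of them comes out ahead depends on the annotated exonic lengths taken, 7440 bases for Ezh1 and 6678 bases for Ezh2. The Ezh2-to-Ezh1 ratio of counts per kilobase was 0.665, 0.875 and 0.667 in WT lines 36, 47 and 78 (mean 0.736 ± 0.121, SD, n = 3). It was 1.27, 1.17 and 1.19 in KO lines 33, 41 and 72 (1.21 ± 0.0491, SD, n = 3). The separation of the genotypes for each gene alone, in opposite directions, fixes that the ratios do not overlap, so this is no further evidence. The ratios lay on either side of 1. Ezh2 thus made up 39.9% to 46.7% of the pair in HAT1 WT and 54.0% to 55.9% in HAT1 KO. The summed level of the pair was 6.17 ± 0.354 CPM per kilobase in HAT1 WT and 6.36 ± 0.209 in HAT1 KO (SD, n = 3), with overlapping lines. These ratios and sums carry no test.

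**Figure D2:**
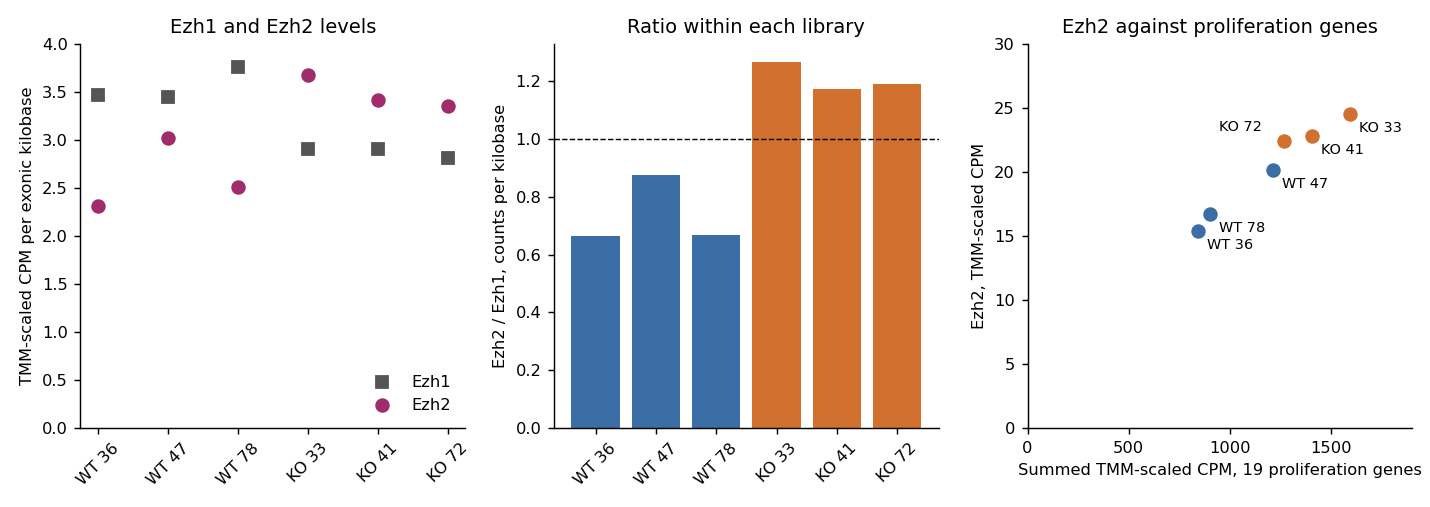
Left, TMM-scaled CPM per exonic kilobase of Ezh1 (squares) and Ezh2 (circles) in each of the 6 lines; middle, the Ezh2-to-Ezh1 ratio in each library, with a dashed line at 1; right, Ezh2 CPM against the summed CPM of 19 proliferation genes, 1 point a line (blue HAT1 WT, orange HAT1 KO). The ratio is 0.665 to 0.875 in HAT1 WT and 1.17 to 1.27 in HAT1 KO, and the lines stand in the same order for Ezh2 and for the proliferation sum.

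Genes of cell division went with Ezh2. The proliferation list was chosen with earlier results of these data known, so its shares are a description and no independent test. All 19 of its genes were higher in HAT1 KO, beside 51.5% of all tested genes. At an unadjusted edgeR p under 0.05 there were 14 (73.7%, beside the 5.88% of all tested genes that were higher at that threshold). At an adjusted p under 0.05 there were 0 (smallest 0.124, edgeR), and the median log2 difference was 0.60. Together the 19 genes came to 843, 1213 and 902 CPM in WT lines 36, 47 and 78 and 1589, 1402 and 1264 CPM in KO lines 33, 41 and 72. The 6 lines stood in the same order for this sum and for Ezh2: WT 36, WT 78, WT 47, KO 72, KO 41 and KO 33. Top2a, the topoisomerase that untangles chromosomes, differed by 0.74 (SE 0.21) and Mcm2, a part of the replicative helicase, by 0.39 (SE 0.14) on the log2 scale. Mki67, the Ki-67 proliferation marker, differed by 0.33 (SE 0.24) and E2f1, a driver of S-phase entry, by 0.21 (SE 0.13), neither at an unadjusted p under 0.05. The part of proliferation in the Ezh2 difference was not tested. WT line 78 had low Y-linked counts, though above those of the KO lines. It lay above the range of the KO lines for Ezh1 and below it for Ezh2. The separation of the genotypes fixes this for every WT line, so it gives no test of the Y-linked split.

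The scaffold and the reader of PRC2 had folds of 1.02 and 1.07 in HAT1 KO over HAT1 WT. Suz12 (ENSMUSG00000017548, chr11:79993106-80034123, plus strand) was at 53.4, 60.8 and 60.5 CPM in WT lines 36, 47 and 78 and at 61.4, 62.5 and 54.9 CPM in KO lines 33, 41 and 72. The genotypes overlapped, and the log2 difference was 0.03 (SE 0.08, edgeR adjusted p = 0.887), with its sign turned where lane was in the model (-0.02) or WT line 36 was left out (-0.02). Both fits take WT line 36 out of the comparison. Eed (ENSMUSG00000030619, chr7:89954654-89980983, minus strand) was at 20.8, 21.7 and 21.7 CPM in the WT lines and at 22.8, 22.5 and 23.4 CPM in the KO lines. These groups did not overlap, since the 3 lines of each genotype lay close together, but the log2 difference was 0.10 (SE 0.07, edgeR adjusted p = 0.557). Of the exonic bases of Eed, 6.82% are shared with E230029C05Rik on the other strand, and the library kit did not mark strand, so reads there could belong to either gene.

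Jarid2 (ENSMUSG00000038518, chr13:44729474-44921643, plus strand) varied most between WT lines among the members, with a coefficient of variation of 28.2%. It was at 21.5, 23.2 and 35.3 CPM in WT lines 36, 47 and 78 and at 24.1, 17.8 and 17.8 CPM in KO lines 33, 41 and 72. WT line 78 was the highest and KO line 33 lay above the other two WT lines, so the groups overlapped. The log2 difference of -0.42 (SE 0.23, edgeR adjusted p = 0.456) had about the size of that of Ezh2 but a standard error of 0.23 against 0.12. Leaving out WT line 78 brought the log2 difference of Jarid2 to -0.16, and leaving out KO line 33 to -0.58.

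**Figure D3:**
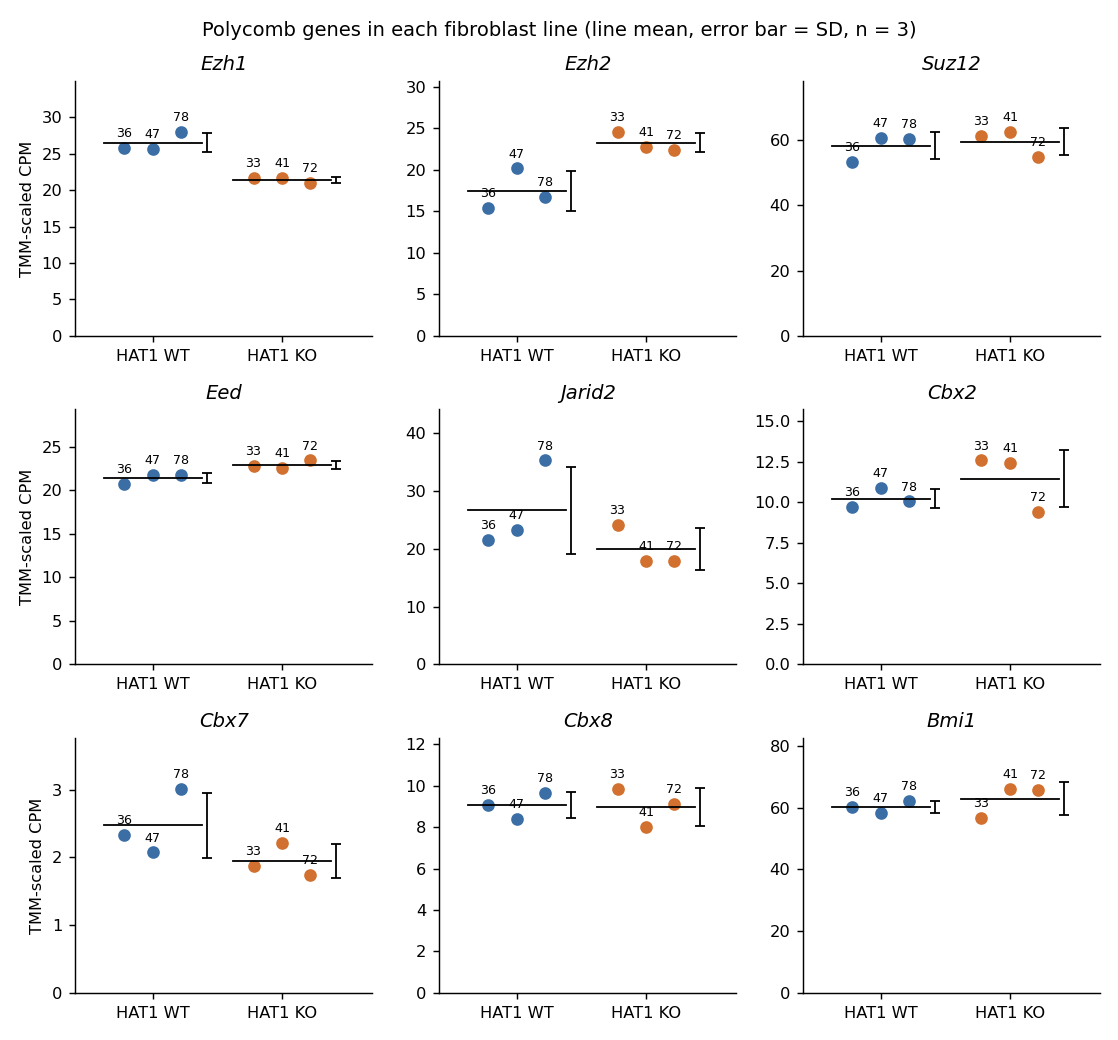
TMM-scaled CPM (vertical axes, from 0) of the 9 Polycomb genes in each line, labelled by line number, with HAT1 WT in blue and HAT1 KO in orange; horizontal lines are means and error bars the SD of 3 lines. The genotypes separate for Ezh1, Ezh2 and Eed, and overlap for the other 6 genes.

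Of the CBX readers of PRC1 none separated the genotypes. Cbx2 (ENSMUSG00000025577, chr11:119022962-119031270, plus strand) was at 9.72, 10.9 and 10.0 CPM in WT lines 36, 47 and 78 and at 12.6, 12.4 and 9.40 CPM in KO lines 33, 41 and 72. KO lines 33 and 41 lay above the WT lines and KO line 72 below them, for a log2 difference of 0.16 (SE 0.14, edgeR adjusted p = 0.634). Without KO line 72, the library that stood apart, it was 0.30 with an unadjusted p of 0.026 and an adjusted p of 0.211. Cbx8 (ENSMUSG00000025578, chr11:119036305-119040969, minus strand), the neighbour of Cbx2 on chromosome 11, was at 9.06, 8.41 and 9.66 CPM in the WT lines and at 9.84, 8.02 and 9.10 CPM in the KO lines. Its log2 difference of -0.01 (SE 0.12, edgeR adjusted p = 0.981) changed sign in 5 of the 14 alternatives and stayed between -0.08 and 0.07. Cbx7 (ENSMUSG00000053411, chr15:79915807-79971119, minus strand) had the fewest counts of the members, 134 to 298 in a library. It was at 2.33, 2.07 and 3.01 CPM in the WT lines and at 1.88, 2.22 and 1.74 CPM in the KO lines, with KO line 41 above WT line 47, for a log2 difference of -0.35 (SE 0.22, edgeR adjusted p = 0.517). Of its exonic bases 1.54% are shared with Apobec3 on the other strand. Ezh2 and Suz12 share 2.61% and 3.6% of theirs with Gm26625 and Gm26563 on the other strand, long noncoding RNAs with no row of their own in the table.

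Bmi1 (ENSMUSG00000026739, chr2:18677018-18686629, plus strand) had the highest mean level of the members in each genotype, though Suz12 was above it in WT line 47 and KO line 33. It was at 60.3, 58.4 and 62.2 CPM in WT lines 36, 47 and 78 and at 56.7, 66.1 and 65.8 CPM in KO lines 33, 41 and 72. KO line 33 was the lowest of all lines and the other KO lines the highest, so the groups overlapped, with a log2 difference of 0.06 (SE 0.08, edgeR adjusted p = 0.771). Under the 14 alternatives it lay between 0.03 and 0.13 and never at an unadjusted p under 0.05.

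Set side by side per kilobase of exon, the members spanned a range of levels that the genotype left mostly in place. In HAT1 WT the order was Bmi1 (15.2 ± 0.471 CPM per kilobase, SD, n = 3), Suz12 (11.8 ± 0.839), Eed (5.59 ± 0.147), Ezh1 (3.56 ± 0.171), Jarid2 (2.74 ± 0.773), Ezh2 (2.61 ± 0.367), Cbx8 (2.46 ± 0.170), Cbx2 (2.40 ± 0.142) and Cbx7 (0.381 ± 0.0746). From Ezh1 down to Cbx2 the ranges of neighbours in that order overlapped, and the steps from Bmi1 to Suz12 to Eed to Ezh1, and from Cbx2 to Cbx7, did not. In HAT1 KO Ezh2 (3.48 ± 0.173) came ahead of Jarid2 and stood clear of Ezh1 (2.88 ± 0.0529), and Jarid2 (2.05 ± 0.374) came just before Cbx7. Bmi1, Suz12 and Eed kept the top places and Cbx7 the lowest. Levels per kilobase take the union of annotated exons as the length, so a gene with long exons that are seldom used comes out low.

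Within their families the members ranked differently. Among the 5 CBX genes of canonical PRC1, Cbx6, which is no member and is named for its level, made up 63.8% to 69.2% of the summed CPM per kilobase in every line, and Cbx7 1.16% to 1.79%. Cbx2 held 9.11% to 12.2% and Cbx8 9.12% to 11.6%. Among the 6 PCGF genes Bmi1 held 34.9% to 37.7% and Pcgf3, the partner in a variant PRC1 and also named for its level, 35.4% to 39.2%. Neither share of Bmi1 nor that of Cbx2 or Cbx8 separated the genotypes, and the share of Cbx7 was 1.45% to 1.79% in HAT1 WT and 1.16% to 1.43% in HAT1 KO.

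The genes whose levels followed Ezh2 most closely over the 6 libraries were Pfas, of purine synthesis (Pearson r = 0.997), Gen1, a nuclease that resolves recombination intermediates (0.994), Rad18, a ubiquitin ligase of DNA damage tolerance (0.994), Fanca, of the Fanconi anaemia repair complex (0.992), and Cdca5, the cohesin protector sororin (0.992). The search covered 12337 genes, and 155 of them reached 0.95. Eed had an r of 0.87 with Ezh2 and Ezh1 one of -0.86. The 5 genes closest to Bmi1 were Fam120c (0.997), Adprm (0.982), Recql, a DNA helicase (0.980), Cdc42ep3 (0.978) and Ercc5, a repair nuclease (0.964), and 16 genes reached 0.95. Bmi1 and Ezh2 had an r of 0.06 with each other. The points share 6 libraries and, for Ezh2, the split between the genotypes, so these values describe likeness only.

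Few of the other genes of the pathway differed between the genotypes at the unadjusted threshold. Of 44 further PRC2, PRC1 and opposing genes, 43 were in the table and all of these were tested. None passed an adjusted p of 0.05 in edgeR, DESeq2 or voom, and 3 had an unadjusted edgeR p under 0.05, which is 6.98% against 14.6% of all tested genes. Of the 43, 21 were higher and 22 lower, with a median log2 difference of -0.01. The 3 were lower in HAT1 KO: Fbrs, of a variant PRC1 (-0.21, SE 0.06, edgeR adjusted p = 0.227), Mga, the DNA-binding subunit of the PCGF6 complex (-0.29, SE 0.10, adjusted p = 0.269), and Asxl2, the partner of the H2A deubiquitinase BAP1 (-0.29, SE 0.10, adjusted p = 0.266). In 6 of the 43 (14.0%, against 22.0% of all tested genes) the lines did not overlap, 1 higher and 5 lower. Without KO line 72 the count at an unadjusted p under 0.05 was 7, 4 higher and 3 lower, or 16.3% beside 18.5% of all tested genes in that fit. Without KO line 41 it was 0, beside 13.7%.

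The histone chaperones of PRC2 did not separate the genotypes. Rbbp7, the partner of HAT1 that also sits in PRC2, was at 159, 172 and 147 CPM in WT lines 36, 47 and 78 and at 185, 186 and 146 CPM in KO lines 33, 41 and 72, with a log2 difference of 0.11 (SE 0.12, edgeR adjusted p = 0.715). Rbbp4, its close relative, differed by 0.12 (SE 0.08, edgeR adjusted p = 0.578). The genotypes overlapped for both. Rbbp7 is X-linked, and so is Kdm6a, a demethylase that removes the PRC2 mark and is named after its values were seen. Kdm6a was at 25.9 and 27.1 CPM in WT lines 36 and 47 and at 37.3 to 44.9 CPM in WT line 78 and the KO lines, so WT line 78, with few Y-linked counts, lay with the KO lines.

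**Figure D4:**
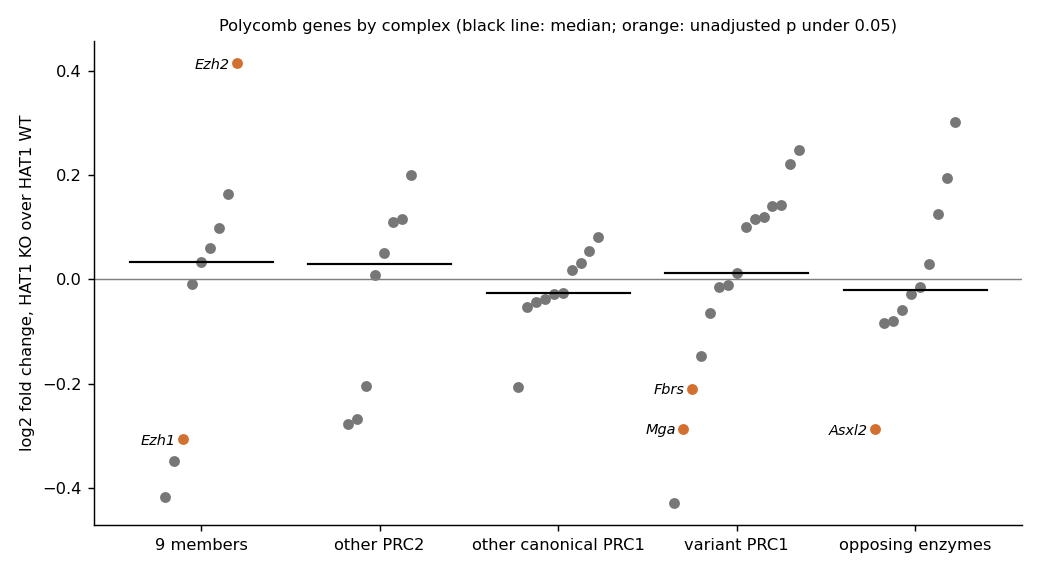
Log2 fold change of HAT1 KO over HAT1 WT (vertical axis, edgeR) for the 9 members and for 43 other Polycomb genes in 4 groups, 1 point a gene, with the median of each group as a black line and an unadjusted p under 0.05 in orange. The medians lie between -0.03 and 0.03, and Ezh2 is the orange point above 0.

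Genes known as targets of the Polycomb complexes gave no call in edgeR either. Of 102 listed targets (Cdkn2a and Cdkn2b, the Hox genes, and other transcription factors of development) 82 were in the table and 75 were tested. The 75 are those that passed the filter on low counts, so targets silent in both genotypes are not among them. None passed an adjusted p of 0.05 in edgeR (smallest 0.133, Dlx5), 2 did in DESeq2 (2.67%, against 5.90% of all tested genes) and 0 in voom (against 1.81%). At an unadjusted edgeR p under 0.05 there were 10 of 75 (13.3%, against 14.6% of all tested genes), 8 higher and 2 lower. Among the 8, Hoxc12 and Dlx5 passed the filter only through the KO lines, so their higher values were partly a condition of being tested. With a mean of at least 50 counts asked for, 7 of 67 targets (10.4%, against 15.7% of all tested genes) had such a p, 5 higher and 2 lower. Over the 75 the median log2 difference was -0.03, with 36 higher and 39 lower.

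Cdkn2a, which encodes the cell-cycle inhibitors p16 and p19 and is the best-known target of BMI1, was at 73.7, 49.9 and 59.1 CPM in WT lines 36, 47 and 78 and at 26.3, 42.7 and 99.0 CPM in KO lines 33, 41 and 72. The KO lines held both the lowest and the highest value, and the log2 difference was -0.12 (SE 0.47, edgeR adjusted p = 0.927). Its neighbour Cdkn2b, which encodes p15, differed by -0.13 (SE 0.21, edgeR adjusted p = 0.822) and was also highest in KO line 72, at 69.6 CPM.

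Among the Hox genes, which set position along the body axis, 37 were tested, and 3 were higher and 2 lower at an unadjusted p under 0.05, which is 13.5% beside 14.6% of all tested genes. The 3 higher ones were of the posterior end of their clusters and nearly off in HAT1 WT. Hoxd11 was at 0.265, 0.410 and 0.576 CPM in WT lines 36, 47 and 78 and at 0.584, 2.69 and 10.6 CPM in KO lines 33, 41 and 72. Hoxd12 stood at 4.50 CPM in KO line 72 and at 0.0606 to 0.178 CPM in the others, and Hoxc12 at 2.43 CPM in KO line 41 and at 0 to 0.168 CPM in the others, so 1 line held most of each difference. Hoxc12, with 0 to 8 counts in a WT library, passed the filter on low counts only through the KO lines, and with a mean of at least 50 counts asked for it was no longer tested. The lower ones were Hoxb8 (log2 difference -0.56, SE 0.20, edgeR adjusted p = 0.300) and Hoxc9 (-1.62, SE 0.60, adjusted p = 0.303), and for Hoxc9 the low WT line 78, at 1.32 CPM, lay among the KO lines.

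Of 36 tested developmental regulators 5 were higher and 0 lower at an unadjusted p under 0.05, which is 13.9% beside 14.6% of all tested genes. The 3 with the smallest p were DLX factors of limb and craniofacial development. Dlx5 was at 0.106, 0.149 and 0.121 CPM in WT lines 36, 47 and 78 and at 0.505, 0.296 and 0.778 CPM in KO lines 33, 41 and 72 (log2 difference 2.06, SE 0.45, edgeR adjusted p = 0.133). Dlx2 was at 1.96, 1.85 and 1.90 CPM in the WT lines and at 3.80, 3.34 and 9.23 CPM in the KO lines (1.52, SE 0.41, adjusted p = 0.195). For both, every KO line was above every WT line, though the Dlx5 values rest on 8 to 60 counts a library. With 8 to 12 counts in a WT library, Dlx5 passed the filter on low counts only through the KO lines. Its higher KO values were thus partly a condition of its being tested. With a mean of at least 50 counts asked for, Dlx5 was no longer tested. Dlx1, next to Dlx2 on chromosome 2, differed by 1.86 (SE 0.75, edgeR adjusted p = 0.331), with overlapping lines. The targets depended on single lines more than the members did: without KO line 33 their count at an unadjusted p under 0.05 was 29, 18 higher and 11 lower, or 38.2% beside 12.4% of all tested genes in that fit. Without WT line 47 it was 3 (4.0% beside 11.1%), and without KO line 72 it was 8 (10.4% beside 18.5%).

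**Figure D5:**
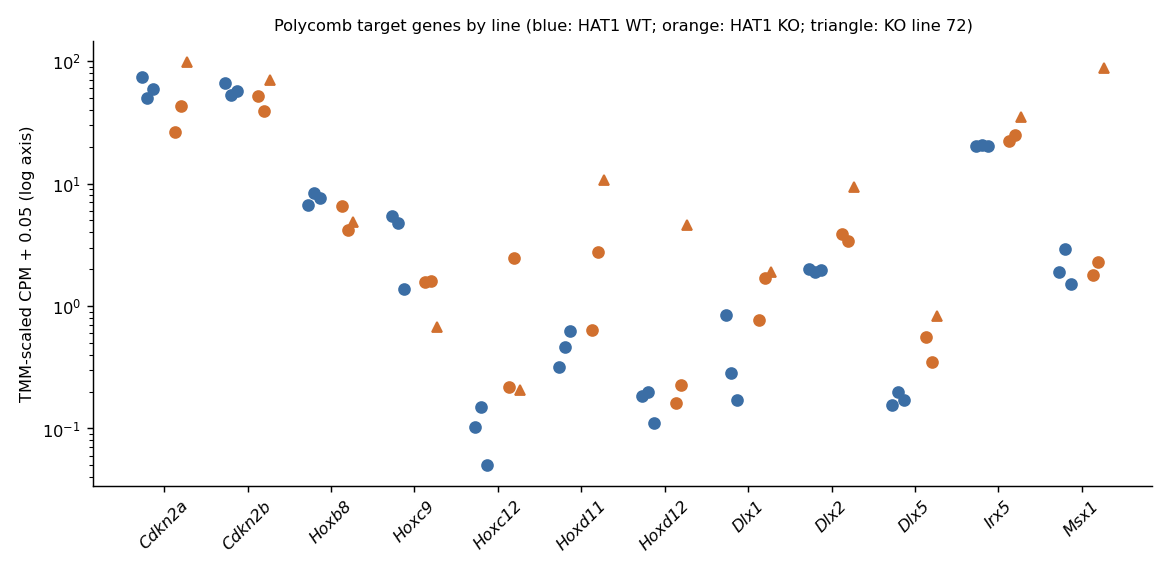
TMM-scaled CPM plus 0.05 (vertical axis, log scale) of Cdkn2a, Cdkn2b and the 10 target genes with an unadjusted p under 0.05, 1 point a line, with HAT1 WT in blue, HAT1 KO in orange and KO line 72 as a triangle. KO line 72 is the highest line for 9 of the 12 genes, all but Hoxb8, Hoxc9 and Hoxc12, and the genotypes separate for Hoxb8, Hoxc12, Hoxd11, Dlx2, Dlx5 and Irx5.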

How the data were processed

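RNA of 3 HAT1 WT and 3 HAT1 KO pMEF lines was sequenced from TruSeq v2 libraries, a kit that does not mark strand. The authors deposited raw read counts per gene, with no normalization, in which 75.1% of counts from 1 to 10 were even. The same deposited table held the authors' own log2 fold changes and log2 mean levels, F scores, p-values and q-values, none of which were used here. The submitters' processing notes name edgeR and mm10, and the aligner and counter are not given in the sources used here. Each column of sample values was matched to a sample by its name, and the libraries all differed.

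Groups came from the genotype labels. The main test was that of edgeR 4.0.16 under R 4.3.3 (filterByExpr, TMM, quasi-likelihood, genotype only, two-sided, Benjamini-Hochberg over 14773 genes, threshold 0.05). The SE is the absolute log2 difference divided by the square root of F, an approximation. Fits were tested on simulated counts. The alternatives were 2 other scalings, DESeq2 1.42.0, limma 3.58.1 (voom with sample quality weights), no filter, a mean of at least 50 counts, lane as a covariate, counts divided by 2, and leaving out each line. Gene positions and exonic lengths came from GENCODE M21, which all 17512 genes matched by identifier, and promoters from RefSeq on GRCm38.p6. Depth limits the low genes most, and sampling error there covers counting only.

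The members and gene lists were chosen with earlier results of these data known. Genes named were Hat1, the members, Rbbp4, Rbbp7, Cdkn2a, Cdkn2b, 4 proliferation genes, up to 3 genes a list and direction with the smallest unadjusted p under 0.05, and the 5 most like Ezh2 and Bmi1 among genes with a mean of at least 1 CPM. Cbx6, Pcgf3 and Kdm6a were named after their values were seen.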

Additional observations from a re-analysis of the deposited data

How the results depend on the processing

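No paired analysis was possible because the genotypes share no replicate numbers. Over 14 alternatives, 125 of 140 log2 differences of the members and Hat1 kept their direction and their side of the adjusted threshold. The number of members past an adjusted p of 0.05 was 0 in edgeR and in each other alternative but DESeq2's Wald test, where it was 1 (Ezh1), the single difference that gained the threshold. With lane in the model the members at an unadjusted p under 0.05 were 1 (Ezh1) in place of 2, the targets 5 in place of 10 (6.67%, as the share of all tested genes went from 14.6% to 6.3%), and Hat1, at -1.10, had an adjusted p of 0.529; voom also gave 5 targets. With each line left out in turn, the members at an unadjusted p under 0.05 numbered 2 to 3, the other Polycomb genes 0 to 7 and the targets 3 to 29, and Hat1 lay between -1.08 and -0.87 with adjusted p of 0.0587 to 0.230, so its call needed all 6 lines. The directions that turned were those of Cbx8, to 0.00016 (DESeq2), 0.0052 (voom) and 0.0086 (no filter) and between -0.078 and 0.071 with a line left out, and of Suz12, to -0.016 with lane and between -0.021 and 0.10 with a line left out. The causes were not tested. With 3 lines a genotype, the log2 differences of Suz12, Cbx8 and Bmi1 lay below their standard errors. Those of Eed, Cbx2, Cbx7 and Jarid2 lay above them, with unadjusted edgeR p of 0.197, 0.281, 0.162 and 0.111. None of these could be told from 0, and in edgeR no member passed the adjusted threshold.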
